A study of Mus musculus with 6 samples.

Results

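The genes described here encode the nuclear part of the mitochondrial respiratory chain, the ATP synthase and the mitochondrial ribosome. They were chosen by symbol alone, as every gene whose single annotated symbol starts with Nduf, Sdh followed by a to d, Uqcr, Cox followed by a digit, Atp5, Mrpl or Mrps. The rule found 135 genes on 152 probes, out of 10698 genes with a single symbol on the array. Of these, 121 genes had a ratio on all 6 arrays and were tested, 12 had ratios on some arrays only, and 2 had none. RNA of RAW 264.7 cells, a mouse macrophage line, was compared after 1 h with lipopolysaccharide (LPS, 100 ng/ml) plus LPS-binding protein (LBP, 100 pM) and without treatment. Each of 6 dual-channel arrays took both total RNAs, the treated one being labelled with Cy5 on 3 of them (the Cy5 arrays) and with Cy3 on the other 3 (the Cy3 arrays), and either kind is numbered as sets 1 to 3. The labels name a single cell line (part of them spell it RAW 264.4), describe no other genotype or agent, and do not state whether each set was a culture of its own, so p-values cover the variation among these arrays, which may be technical only.

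The respiratory chain passes electrons from NADH through complex I, or from succinate through complex II, to ubiquinone, then through complex III and cytochrome c to complex IV, which reduces oxygen. The proton gradient built on the way drives the ATP synthase. A small number of core subunits are encoded in mitochondrial DNA and are made by the mitochondrial ribosome, whose proteins are all imported from the cytosol, so both machines depend on nuclear genes such as those described here. In macrophages, prolonged LPS exposure is known for a shift of energy metabolism from respiration towards glycolysis, with complex II as a source of signals for inflammatory genes.

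Values are log2 ratios of treated over untreated RNA, so that -1 stands for a halving. Their sign takes Cy5 as numerator, since the labels call the Cy5 RNA the test, and all signs would turn if it were Cy3. With this reading the inflammatory genes Tnf (2.44 ± 0.19, SD, n = 3 sets) and Il1b (2.54 ± 0.16) and the early transcription factor gene Egr1 (5.13 ± 0.16) rose (limma, largest adjusted p = 1.46e-05). Arrays that share a set number were averaged to 1 replicate, which cancels a common dye effect. An average of 2 arrays varies less than a single array, so an SD over sets does not show the spread of single arrays. Arrays of the same set number did not deviate together (r = -0.0077, -0.281 and -0.0943 with orientation means removed), so this SD depends on a pairing by number alone. The p-values rest on 3 such averages and can be too small. Between 8.99% and 23.9% of the values of an array were an exact 0 and were taken as not measured. Ratios give no expression level, so the cell type could not be checked against its markers, and in bulk RNA fewer cells with a transcript cannot be told apart from less of it per cell.

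After 1 h of LPS and LBP the respiratory and mitochondrial ribosomal genes stayed close to their untreated level. Of the 121 measured genes, 2 fell and 0 rose (limma, Benjamini-Hochberg adjusted p under 0.05 over all 8331 genes tested), which was 1.65% of them, against 13.2% of all genes tested. By direction, 6.21% of all genes tested fell and 6.96% rose. At an unadjusted p under 0.05, 20 of the 121 were lower (16.5% of them) and 0 were higher, against 14% and 13.1% of all genes tested. Both genes that fell encode mitochondrial ribosomal proteins, 3.45% of the 58 measured, with 11 of the 58 lower and 0 higher at an unadjusted p under 0.05. None of the 61 respiratory chain and ATP synthase genes was called, with 8 of them lower and 0 higher at an unadjusted p under 0.05. The mean ratio was below 0 for 40 of the 58 ribosomal genes and for 53 of the 61 others. The mean ratios of the 121 genes ran from -0.21 to 0.088, whereas those of all genes tested ran from -1.54 to 5.13. None of the 121 reached an absolute ratio of 0.25, a size that 811 of all 8331 genes (9.73%) reached. The median absolute ratio was 0.056 for these genes and 0.069 for all genes tested.

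The median standard error of limma was 0.044 for the 121 genes and 0.046 for all genes tested. The fit draws each gene's variance towards a common value, which by itself makes these errors more alike. Without that step, the median SD over the 3 sets was 0.062 for the 121 genes and 0.074 for all genes tested. The 95% confidence interval of every one of the 121 genes (limma, not adjusted for the number of genes) lay inside -0.5 to 0.5, or a change of 1.41-fold in either direction, as did that of 94.1% of all genes tested. The lowest bound was -0.32, for Mrps15, and the highest 0.23, for Cox8b. With the 3 arrays of 1 orientation alone, or with incompletely measured genes included, some intervals were wider (lowest bound -0.67 and highest 0.60).

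**Figure D1:**
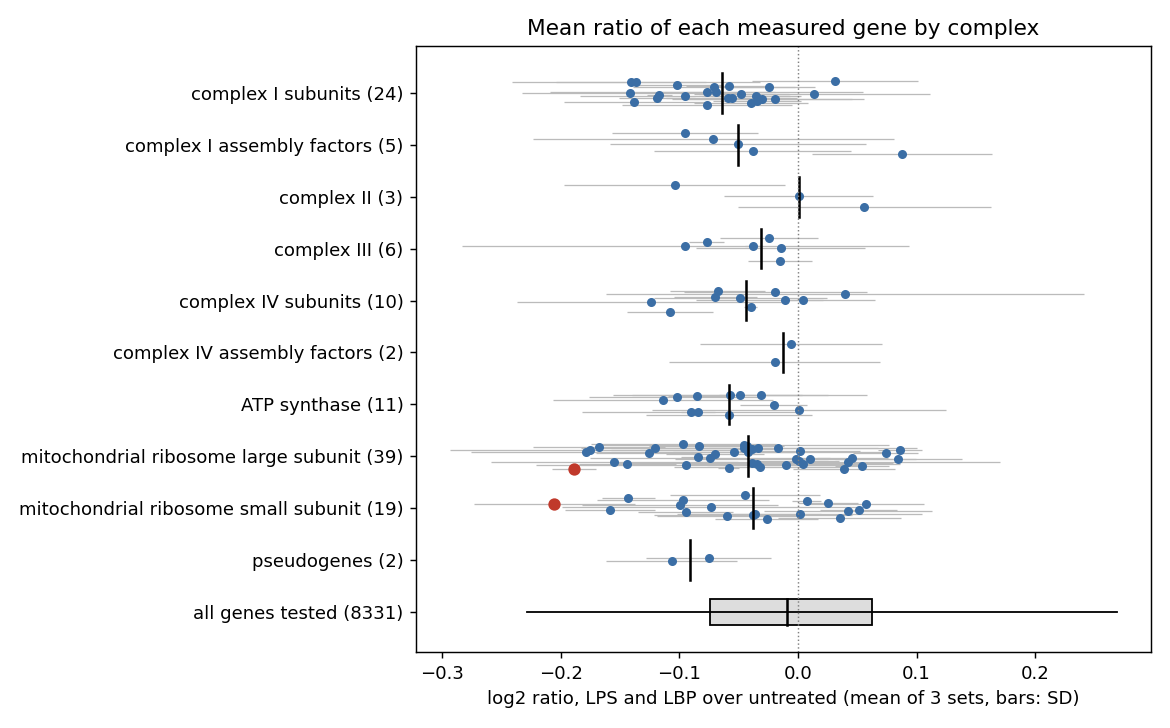
Mean log2 ratio of treated over untreated RNA (horizontal axis) for each measured gene, grouped by complex with the number of genes in brackets. Points are means over 3 sets with SD bars, black bars are class medians, and larger red points mark the 2 genes called lower, Mrpl43 at -0.19 and Mrps15 at -0.21. The box of all genes tested spans the 25th to 75th percentile (-0.074 to 0.062) with whiskers to the 5th and 95th (-0.23 to 0.27).

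**Figure D2:**
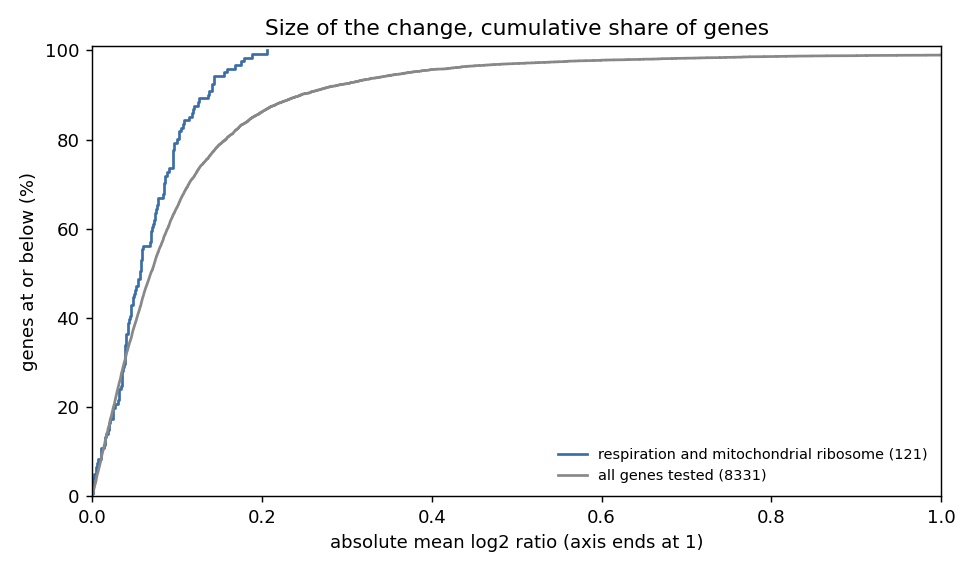
Cumulative share of genes (vertical axis, percent) at or below an absolute mean log2 ratio (horizontal axis, cut at 1). The curve of the 121 respiratory and mitochondrial ribosomal genes ends at 0.21, while that of all 8331 genes tested continues beyond the axis.

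Although few genes were called, most ratios lay slightly under 0. The mean was below 0 for 95 of the 121 genes (78.5%), against 53.8% of all genes tested, and the median ratio was -0.048, against -0.0092 for all genes tested. The medians of the 121 genes in sets 1, 2 and 3 were -0.039, -0.048 and -0.062. This small offset differed with the dye. The median was -0.091 on the Cy5 arrays and -0.0094 on the Cy3 arrays, where all genes tested had medians of 0.00088 and -0.0050. Each gene's mean holds 3 arrays of either orientation, so a dye effect that is the same on every array cancels in it. Of the single genes, 0 of 121 had a dye effect at an adjusted p under 0.05 (limma, lowest adjusted p = 0.114), a test that called 5 of all genes tested (0.06%). For 76 of the 121 genes (62.8%) the means of the 2 orientations had opposite signs, as for 51.0% of all genes tested.

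**Figure D3:**
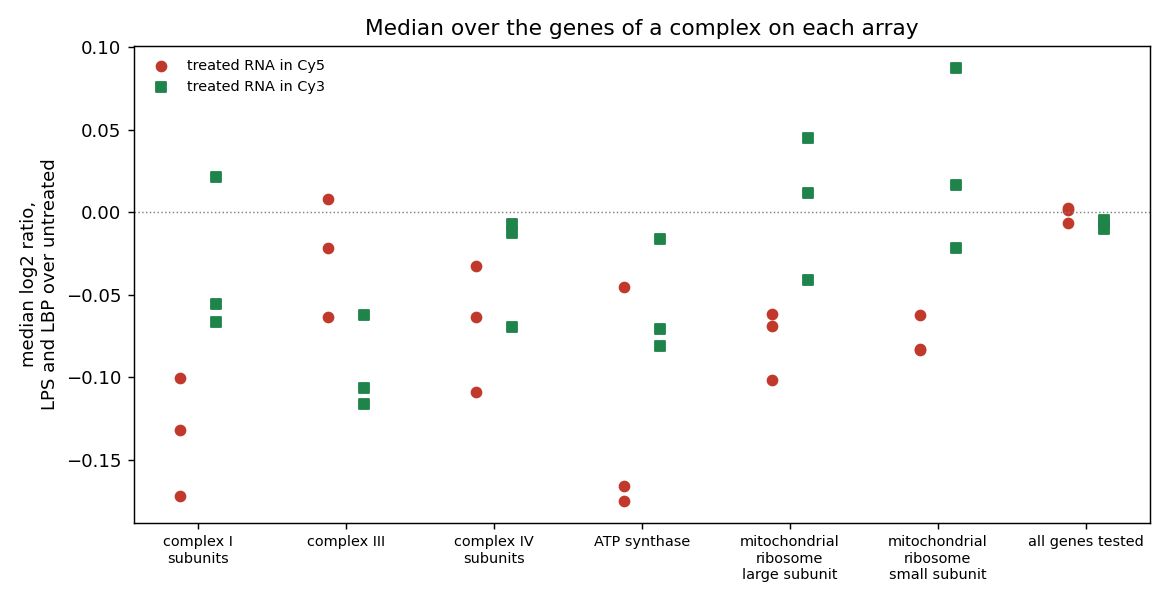
Median log2 ratio of treated over untreated RNA over the genes of each complex (vertical axis), with 1 point per array, circles for Cy5 arrays and squares for Cy3 arrays. The circles of the mitochondrial ribosome lie between -0.10 and -0.062 and its squares between -0.041 and 0.088, while all genes tested stay between -0.0098 and 0.0025.

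Complex I, the NADH dehydrogenase at the entry of the chain, was represented by 24 measured subunits with a median of -0.064 ± 0.014 (SD of the medians of 3 sets), and 22 of them lay below 0. No subunit was called. At an unadjusted p under 0.05, 7 were lower and 0 higher, against the 14% and 13.1% of all genes tested given above. Ndufb10, an accessory subunit of the membrane arm, had the lowest ratio at -0.14 ± 0.091 (limma, adjusted p = 0.129). Its arrays gave -0.12, -0.40 and -0.28 on the Cy5 arrays and 0.036, -0.037 and -0.043 on the Cy3 arrays, so the lower values came from the Cy5 arrays. Ndufb3, another membrane arm subunit, followed at -0.14 ± 0.063 (adjusted p = 0.0984). Ndufa13, also known as GRIM-19 and a binding partner of the transcription factor STAT3, was at -0.14 ± 0.059 (adjusted p = 0.0996) and below 0 on 5 of 6 arrays. Ndufab1, the mitochondrial acyl carrier protein, was measured by 4 probes between -0.15 and -0.10, which all had the same sign. At the upper end, Ndufs4, a subunit of the NADH-oxidising arm, was at 0.031 ± 0.070. Ndufa4, named for complex I though its human protein is a subunit of complex IV, was at -0.040 ± 0.048.

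The 5 measured assembly factors of complex I lay between -0.095 for Ndufaf7, a methyltransferase, and 0.088 ± 0.076 for Ndufaf4 (adjusted p = 0.287), which was the highest ratio of all 121 genes. Ndufaf4 gave 0.056, -0.11 and 0.037 on the Cy5 arrays and 0.087, 0.45 and 0.0060 on the Cy3 arrays, so that 1 array lay far above the other 5.

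Of complex II, the succinate dehydrogenase that also serves the tricarboxylic acid cycle, 3 genes were measured. The iron-sulfur subunit gene Sdhb had a ratio of 0.00065 ± 0.063 (95% interval -0.11 to 0.11), the closest to 0 of the 3. The membrane anchor gene Sdhc was at 0.056 ± 0.11, with 0.12, 0.21 and 0.29 on the Cy5 arrays and -0.092, -0.25 and 0.068 on the Cy3 arrays. Its sign therefore went with the dye on 5 of 6 arrays. The assembly factor gene Sdhaf4 was at -0.10 ± 0.093 (adjusted p = 0.243).

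Complex III, which passes electrons from ubiquinol to cytochrome c, had 6 measured genes, all below 0, with a median of -0.031 ± 0.013. They ran from -0.095 ± 0.19 for Uqcrb (adjusted p = 0.462) to -0.015 ± 0.071 for the core subunit gene Uqcrc1 and -0.015 ± 0.027 for Uqcrfs1, the Rieske iron-sulfur protein. Uqcr11, a small accessory subunit, was at -0.077 ± 0.015 and below 0 on all 6 arrays, but was not called (adjusted p = 0.272). Here the orientations lay the other way round, with a median over genes of -0.052 on the Cy5 arrays and -0.089 on the Cy3 arrays.

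Complex IV, cytochrome c oxidase, had 10 measured subunit genes with a median of -0.044 ± 0.017, of which 8 lay below 0 and 0 were called (1 lower and 0 higher at an unadjusted p under 0.05). Several of its subunits have a muscle-type form beside the form of other tissues. The muscle-type genes Cox7a1 (-0.12 ± 0.11), Cox6a2 (0.0042 ± 0.017) and Cox8b (0.040 ± 0.20) gave the lowest ratio and the 2 highest. Cox8b had the largest SD over sets of the 121 genes, with 0.66 on the Cy3 array of set 3 and between -0.23 and 0.066 on the other arrays. Without intensities it is unknown whether these muscle-type transcripts were above background. Cox7c, a subunit of all tissues, was at -0.11 ± 0.036 (adjusted p = 0.157). The assembly factor genes Cox17, a copper chaperone, and Cox16 were at -0.020 ± 0.089 and -0.0059 ± 0.077.

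The ATP synthase was represented by 11 measured genes with a median of -0.058 ± 0.031, 10 of them below 0 and 0 called (0 also at an unadjusted p under 0.05). The median was -0.028 without set 3 and -0.078 without set 1. The catalytic beta subunit gene Atp5b was at -0.031 ± 0.035, with arrays between -0.070 and 0.059. The rotor gene Atp5c1, which encodes the gamma subunit, was at -0.084 ± 0.015, and Atp5k, a membrane subunit, was at -0.085 ± 0.025. Both were below 0 on all 6 arrays, as was Atp5j2, and none of the 3 was called (adjusted p between 0.223 and 0.234). Over all 121 genes, 8 were below 0 and 2 above 0 on all 6 arrays, against 9.11% and 10% of all genes tested, so that 8.26% of them had a single sign, against 19.1% of all genes tested. The lowest ratio was that of Atp5e, the epsilon subunit, at -0.11 ± 0.093 (adjusted p = 0.21). The highest was that of Atp5md, a small subunit of the membrane sector, at 0.00058 ± 0.12. Its arrays gave 0.12, 0.52 and 0.22 on the Cy5 arrays and -0.31, -0.23 and -0.31 on the Cy3 arrays. These groups did not overlap, and the mean near 0 is the average of opposite values.

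The mitochondrial ribosome held both called genes, which were 3.45% of its 58 measured genes, against 13.2% of all genes tested. Its large subunit had 39 measured genes with a median of -0.042 ± 0.0091, 28 of them below 0, and its small subunit had 19 with a median of -0.038 ± 0.031, 12 of them below 0. Mrpl43, a protein of the large subunit, fell by 0.19 ± 0.019 (limma, adjusted p = 0.0293), or to 0.877-fold. Its arrays gave -0.15, -0.22 and -0.20 on the Cy5 arrays and -0.22, -0.12 and -0.21 on the Cy3 arrays. All 6 arrays were below 0 and the 2 orientations overlapped. Mrps15, a protein of the small subunit, fell by 0.21 ± 0.068 (adjusted p = 0.0341), or to 0.867-fold. It gave -0.28, -0.43 and -0.40 on the Cy5 arrays and 0.029, -0.056 and -0.096 on the Cy3 arrays. The orientations did not overlap, and the Cy3 arrays alone gave -0.041 (adjusted p = 0.685).

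Both calls were close to the threshold and neither held with set 1, 2 or 3 left out. Without each set in turn Mrpl43 was between -0.20 and -0.18 (adjusted p from 0.0745 to 0.161) and Mrps15 between -0.24 and -0.18 (adjusted p from 0.0929 to 0.107), in fits with fewer averages. With the arrays kept apart and a dye term, 8 of the 121 genes passed, all lower, where 1439 of all 8331 genes tested passed. The 8 were Mrpl12, Mrpl18, Mrpl43, Mrpl44, Mrpl55, Mrps15, Mrps25 and Ndufb3.

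The genes just outside the threshold were also ribosomal and lower. Mrpl55 was at -0.17 ± 0.056 (adjusted p = 0.0556) and below 0 on all 6 arrays. Mrps21 was at -0.16 ± 0.038 (adjusted p = 0.0563), with arrays from -0.49 to 0.13. Mrps25 was at -0.14 ± 0.023 (adjusted p = 0.07), with -0.067, -0.083 and -0.047 in Cy5 and -0.25, -0.23 and -0.19 in Cy3, so every array was below 0 while the orientations did not overlap. Mrpl44, whose protein carries a ribonuclease III-like fold, was at -0.18 ± 0.096 (adjusted p = 0.0721) and below 0 on every array. Mrpl12, which in mammals also binds the mitochondrial RNA polymerase, was at -0.14 ± 0.041 (adjusted p = 0.0759), and its 2 probes were at -0.15 and -0.14.

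At the other end, the highest ratios of the ribosome were those of Mrpl47 at 0.086 ± 0.018 (adjusted p = 0.228) and Mrps31 at 0.057 ± 0.049 (adjusted p = 0.438). Mrpl1 (0.085 ± 0.054, adjusted p = 0.269) and Mrps31 were the 2 genes above 0 on all 6 arrays. For some genes the sign differed between the orientations. Mrpl40 gave -0.30, -0.68 and -0.36 on the Cy5 arrays and 0.055, 0.51 and 0.016 on the Cy3 arrays. Mrpl32 gave -0.098, -0.48 and -0.20 in Cy5 and 0.45, 0.32 and 0.27 in Cy3. Neither had a call for treatment or for dye (dye adjusted p = 0.156 and 0.114). The 2 pseudogenes that fit the symbol rule, Ndufs5-ps and Atp5k-ps1, were at -0.11 ± 0.055 and -0.075 ± 0.053, and their probes may share signal with the parent genes.

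**Figure D4:**
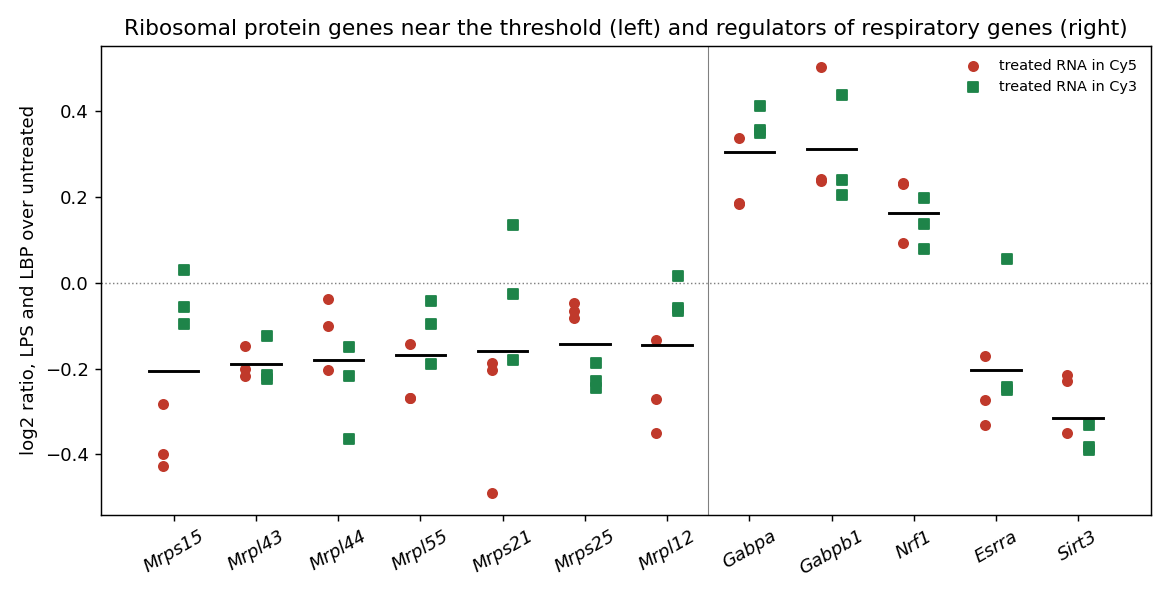
Log2 ratio of treated over untreated RNA on each array (vertical axis) for the 7 mitochondrial ribosomal genes of lowest adjusted p (left) and 5 regulators of respiratory genes (right), circles for Cy5 arrays, squares for Cy3 arrays, bars for the mean. Mrpl43 lies below 0 on every array, Mrps15 mainly on the Cy5 arrays, and Gabpa and Gabpb1 lie above 0 on all 6.

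Of the genes with several complete probes, 11 in all, 3 (Mrpl20, Mrpl39 and Uqcrq) had probes of different sign, none of them called. Of the 14 genes without a ratio on every array, 10 could be fitted with incomplete probes included, and none was called. Cox8a and Ndufc1 had too few ratios for a fit, and Atp5a1 and Atp5o were listed at 0 on all arrays. Cox4i1, a nuclear-encoded subunit of complex IV, gave -0.040, -0.019 and -0.15 on 3 arrays, and Cox5a gave -0.042, -0.10 and -0.036. Atp5j, a stalk subunit of the ATP synthase, had 2 probes that differed widely. One was measured on 3 arrays only, with -2.17 on a Cy5 array and 2.24 and 2.00 on Cy3 arrays. The other was measured on 5 arrays, with -0.44 and -0.34 in Cy5 and 0.095, 0.13 and -0.019 in Cy3. Their joint mean was -0.12 (limma with incomplete probes, adjusted p = 0.697). Mrps17 was at -0.19 over 2 sets (adjusted p = 0.236).

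Genes around these machines were examined from fixed lists. Over all genes tested, 13.2% were called, and 13.1% were higher and 14% lower at an unadjusted p under 0.05. At such shares a list of 16 or 19 genes would hold only a few calls. Of 19 measured electron carriers and assembly factors outside the symbol rule, 0 were called (1 higher and 1 lower at an unadjusted p under 0.05), with a median of -0.044. Cytochrome c (Cycs) was at 0.012 and cytochrome c1 (Cyc1) at -0.047. Of 16 genes of the tricarboxylic acid cycle and pyruvate dehydrogenase, 0 were called (0 higher and 1 lower at an unadjusted p under 0.05), with a median of -0.039 and a range from -0.10 to 0.079. Of 24 protein import genes, 0 rose and 2 fell (1 higher and 4 lower at an unadjusted p under 0.05), where 6.96% and 6.21% of all genes tested did. These were Grpel2, a nucleotide exchange factor of the import motor, and Timm10b, a small chaperone of the intermembrane space. Grpel2 fell by 0.36 ± 0.052 (limma, adjusted p = 0.00352), with means of -0.31 in Cy5 and -0.40 in Cy3. Timm10b fell by 0.24 ± 0.033 (adjusted p = 0.0135), with means of -0.33 in Cy5 and -0.15 in Cy3. It did not pass without set 1 (-0.24) or set 2 (-0.22).

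Of 21 measured genes of mitochondrial gene expression, 0 rose and 3 fell, where 6.96% and 6.21% of all genes tested did (2 higher and 6 lower at an unadjusted p under 0.05, against 13.1% and 14% of all genes tested). Hars2, the mitochondrial histidyl-tRNA synthetase, fell by 0.35 ± 0.030 (adjusted p = 0.00318), with every array between -0.39 and -0.28. Gtpbp3, a tRNA modifying enzyme, fell by 0.23 ± 0.036 (adjusted p = 0.0154) and did not pass without set 1 (-0.23) or set 2 (-0.21). Its arrays gave -0.32, -0.33 and -0.28 in Cy5 and -0.14, -0.21 and -0.11 in Cy3, so the orientations did not overlap. Slirp, an RNA-binding protein that stabilises mitochondrial mRNAs, fell by 0.22 ± 0.091 (adjusted p = 0.0361), and its call was lost with set 1, 2 or 3 left out (-0.26, -0.24 and -0.17). The mean of Slirp was -0.34 in Cy5 and -0.11 in Cy3, where the array of set 2 was above 0 (0.0063). Tfam, the packaging and transcription factor of mitochondrial DNA, was at 0.027.

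Of 8 measured genes on a list of regulators of respiratory genes, 2 rose, 2 fell and 4 were not called, where 13.2% of all genes tested were called. Both rises were subunits of GABP, also called nuclear respiratory factor 2, an ETS-family factor that activates many genes of the respiratory chain. Gabpa, the DNA-binding subunit, rose by 0.30 ± 0.040 (limma, adjusted p = 0.00572), or 1.23-fold, with 0.18, 0.34 and 0.19 in Cy5 and 0.35, 0.36 and 0.41 in Cy3. Gabpb1, the activating subunit, rose by 0.31 ± 0.080 (adjusted p = 0.0088), with 0.24, 0.50 and 0.24 in Cy5 and 0.20, 0.24 and 0.44 in Cy3. All 12 of these values were above 0. Nrf1, nuclear respiratory factor 1, was above 0 on all 6 arrays at 0.16 ± 0.067 and was not called (adjusted p = 0.07). Sirt1 (0.15), Hif1a (0.0053) and Nrip1 (-0.060) were not called either.

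Sirt3, which was on the list although its protein is a mitochondrial deacetylase and no transcription factor, fell by 0.32 ± 0.049 (adjusted p = 0.00541), with -0.21, -0.35 and -0.23 in Cy5 and -0.33, -0.39 and -0.38 in Cy3. Esrra, an orphan nuclear receptor that drives respiratory genes, fell by 0.20 ± 0.060 (adjusted p = 0.0328), with -0.27, -0.33 and -0.17 in Cy5 and -0.24, 0.055 and -0.25 in Cy3. Its call was lost without set 1 (-0.17) and without set 3 (-0.20).

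As both GABP subunit genes rose, promoter windows are shown for both ribosomal genes that fell and for a pair of respiratory genes whose window holds the ETS core CCGGAAGT that GABP binds. RefSeq windows of 300 bases, 250 before to 50 after the gene start, were found for 118 of the 135 genes on GRCm38.p6. The 250 bases before the start are printed 5′ to 3′ on the gene's strand, with the ETS core on either strand in capitals. Mrpl43 lies at chr19:45006443-45006692 on the minus strand and Mrps15 at chr4:126046678-126046927 on the plus strand. Atp5h lies at chr11:115419920-115420169 and Uqcr11 at chr10:80406822-80407071, both on the minus strand.
Mrpl43: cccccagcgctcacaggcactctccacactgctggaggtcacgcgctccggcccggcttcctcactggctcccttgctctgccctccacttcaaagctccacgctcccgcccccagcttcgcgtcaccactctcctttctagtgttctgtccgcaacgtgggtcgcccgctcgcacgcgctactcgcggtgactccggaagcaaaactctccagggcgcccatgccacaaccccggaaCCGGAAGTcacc
Mrps15: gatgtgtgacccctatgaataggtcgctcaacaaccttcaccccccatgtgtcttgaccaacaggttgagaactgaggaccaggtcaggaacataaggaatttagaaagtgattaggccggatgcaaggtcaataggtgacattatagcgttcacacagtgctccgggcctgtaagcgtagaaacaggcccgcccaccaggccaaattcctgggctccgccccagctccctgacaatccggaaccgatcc
Atp5h: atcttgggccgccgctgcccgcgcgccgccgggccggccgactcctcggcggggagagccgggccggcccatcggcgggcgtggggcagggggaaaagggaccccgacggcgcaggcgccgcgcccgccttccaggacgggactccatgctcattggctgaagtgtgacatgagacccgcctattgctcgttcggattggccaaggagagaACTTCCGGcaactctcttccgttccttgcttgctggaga
Uqcr11: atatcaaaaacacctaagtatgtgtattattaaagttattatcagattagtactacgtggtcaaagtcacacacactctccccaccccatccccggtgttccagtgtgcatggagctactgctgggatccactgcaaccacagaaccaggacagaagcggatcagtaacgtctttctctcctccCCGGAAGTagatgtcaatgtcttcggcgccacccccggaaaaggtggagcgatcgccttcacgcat

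The core begins 12 bases before the start of Mrpl43, 39 before that of Atp5h and 66 before that of Uqcr11, and these letters are not in the printed window of Mrps15. Over the 300 bases and both strands, the core was in 13 of 118 windows of the genes described here (11.0%), against 4% of 27025 windows, 1 per gene, in the RefSeq table and 6.68% of windows of genes measured on all arrays. Most of these were ribosomal, with 7 of 36 windows of the large subunit (19.4%) and 1 of 20 of the small. The core was in 1 of 25 windows of complex I subunits, 2 of 4 of complex III, 1 of 11 of complex IV subunits and 1 of 14 of the ATP synthase. The NRF1 core GCATGCGC was in 19 of 118 (16.1%), against 2.80% of all windows and 4.96% of windows of genes measured on all arrays. The kappaB consensus of NF-kappaB was, unlike the other motifs, searched on the gene's strand alone, so sites on the other strand were not counted. It was in 3 of 118 (2.54%), against 5.66% of all windows and 6.40% of those of measured genes. The TATA box TATAAA was in 9 of 118 (7.63%), against 14.2% of all windows and 10.2% of those of measured genes. A match is a description of letters and does not show binding. The 12 measured genes with the ETS core had a median ratio of -0.052 (range -0.19 to 0.074) and the 95 without it had a median of -0.051 (range -0.21 to 0.088).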

How the data were processed

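The authors deposited a log2 ratio for 16281 probes on 6 arrays, with steps before it not given in the sources used here. At least 99.6% of each array's non-zero values equal a log10 ratio of 6 digits over log10 of 2 (tolerance 1e-13). The Cy3 arrays were multiplied by -1 and exact zeros set to missing. Probes with 1 symbol (13738, against 52 with several and 2491 with none) that had every ratio gave 8331 genes, as means per symbol. Names came from the platform annotation. RefSeq gene identifiers on GRCm38.p6 matched 13694 probes and changed 0 symbols. Set averages were tested against 0 with limma 3.58.1 in R 4.3.3 (lmFit and eBayes, two-sided, 2 residual and 4.08 prior degrees of freedom), adjusted over all genes, and dye effects likewise on unturned averages. On simulated averages of 8331 genes the fit was tested against known changes. Precision is limited by the number of arrays. The members and lists were chosen with earlier results of these data known. Named genes are the called members, the highest and lowest of each class, up to 4 called genes of each list, Tnf, Il1b and Egr1. Others (the genes near the threshold, those that moved with the dye, probes that disagree and subunits named for their role) were chosen after their values were seen. So were the promoter motifs and the genes whose promoters are printed, and the NRF1 core was shortened after a search with a longer form, which was also in a larger share of these windows than of all windows.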

Additional observations from a re-analysis of the deposited data

How the results depend on the processing

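The count of genes that fell was 0 with set 1, 2 or 3 left out, 8 with 6 separate arrays and a dye term (no replicate block), 6 with the set number as a replicate block, 5 on the Cy5 arrays only, 1 in Cy3 only, 1 with zeros kept as ratios, 0 with incomplete probes included and 4 with one probe per gene, against 2 as reported. Genes that rose numbered 1 in Cy5 only (Mrpl38) and 1 in Cy3 only (Mrpl32), against 0. Arrays that share a set number did not deviate together (r = -0.0077, -0.281 and -0.0943 with orientation means removed, 0 of 6 arrays closest to its own number). These values show no pairing by number, but they cannot tell whether arrays of the same number share RNA. Under the block Esrra (limma, adjusted p = 0.0966) and Timm10b (adjusted p = 0.0668) also lost their call. Quantile normalization, median centring and the median over probes gave the same Mrpl43 and Mrps15. Over all genes tested, 499, 831 and 832 were called without set 1, 2 and 3, 649 in Cy3 only, 522 with zeros kept and 655 with incomplete probes, against 1097. In the fits with more of the genes described here, 1439 of all genes passed with 6 separate arrays and 1283 with the block. The count was 1035 in Cy5 only and 1211 with one probe per gene. Without a set the median of the large ribosomal subunit ranged from -0.056 to -0.030 and that of the ATP synthase from -0.078 to -0.028. The order of the complexes by median also changed. On the Cy5 arrays only, medians were -0.12 for complex I, -0.052 for complex III, -0.072 for complex IV, -0.14 for the ATP synthase, -0.082 for the large and -0.070 for the small ribosomal subunit. In Cy3 only they were -0.023 for complex I, -0.089 for complex III, -0.023 for the ATP synthase, -0.0072 for the large and 0.036 for the small ribosomal subunit, which turned its sign. One probe per gene gave -0.051 for complex III. Atp5md was at -0.28 in Cy3 only (adjusted p = 0.0464), against 0.00058 as reported. Gabpa did not pass in Cy5 only (0.24), nor Gabpb1 in Cy3 only (0.29) or with zeros kept. The cause of these changes was not tested, except that fits with fewer averages have fewer residual degrees of freedom. Of 416 alternative values of the named genes, 381 kept their direction and side of the threshold or were uncalled in both, 34 kept the direction and lost the call, and 1 reversed. Signal over background is unknown.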
